A study of Mus musculus with 6 samples.

Results

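The genes described here encode the cytosolic ribosomal proteins of mouse stomach. The members were the gene symbols formed of Rpl or Rps, a number and at most a closing a or x, together with Rplp0, Rplp1, Rplp2 and Rpsa, and symbols of pseudogenes were left out. This rule found 76 members among the 23550 genes of the expression table, 46 of the large and 30 of the small subunit, without use of any measured value. RNA sequencing had been done on stomach from mice given saline by gavage (libraries saline 1, 2 and 4) and from mice given Riclin, a bacterial polysaccharide of the succinoglycan type, at 20 mg/kg (libraries Riclin 2, 3 and 4), each for 14 days, with replicate numbers as in the labels. The sample labels print the same dose beside saline, and the strain, age and sex of the mice are absent from the labels, as is whether each library came from 1 animal, so the p-values below measure only the spread between these libraries. A separate experiment of the same study injured the stomach with ethanol, and the labels do not say whether any of these 6 libraries came from it.

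Each ribosome holds a single copy of nearly every ribosomal protein, arranged with ribosomal RNA into a small subunit that reads the messenger RNA and a large subunit that joins the amino acids. Their messenger RNAs begin with a run of pyrimidines, the 5′ terminal oligopyrimidine tract or TOP, through which the mTORC1 kinase adjusts their translation, so that transcript level is only 1 of the layers at which they are controlled. Most of these genes have also left many processed pseudogenes, intronless copies made by reverse transcription of the mature message, and a short read from the gene can match such a copy equally well. The gastric mucosa renews itself throughout life and secretes pepsinogens and mucins in large amounts, which makes ribosomes a large part of its protein-making machinery.

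The copies matter for reading every value below, and 2 pairs are shown because both the member and its copy have a row in the table. In the GENCODE annotation of GRCm38.p6, 73 of the 76 members had at least 1 other gene whose transcript matched at least 90% of the coding sequence at an identity of at least 95%. Rpl8 and Rps3 were among the 3 members without one. The search found 553 such copies, of which 531 were annotated as pseudogenes and 39 had a row in the table. Each stretch below spans 90 coding bases, capitals mark the bases that differ, and positions count from 1 at the first base of the member's start codon. Rpl34 lies at chr3:130726831-130730398 on the minus strand and its processed pseudogene Rpl34-ps1 at chr6:71124610-71124963 on the plus strand. They differed at 2 aligned coding positions, of which T132C is shown. Rpl21 lies at chr5:146832890-146837032 and BC004004 at chr17:29268788-29314065, both on the plus strand, with A360G, G399A, T432C and G433A shown of 7 differences.
Rpl34: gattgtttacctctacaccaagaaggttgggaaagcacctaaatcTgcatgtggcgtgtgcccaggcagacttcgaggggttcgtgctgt
Rpl34-ps1: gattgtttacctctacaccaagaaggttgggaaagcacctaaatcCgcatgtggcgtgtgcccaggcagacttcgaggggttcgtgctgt
Rpl21: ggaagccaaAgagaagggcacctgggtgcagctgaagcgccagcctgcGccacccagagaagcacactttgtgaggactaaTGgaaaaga
BC004004: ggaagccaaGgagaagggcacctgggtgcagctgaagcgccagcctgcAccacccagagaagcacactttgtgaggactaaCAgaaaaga

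Values are FPKM, the fragments assigned to a gene scaled to the gene's length and to the size of the library. Whole read numbers could be recovered from the FPKM values for 23547 of the 23550 genes, all members included, and gave library totals of 30884067 to 40050267 reads. The members together took 2.59%, 3.21% and 2.62% of the reads in saline 1, 2 and 4, and 2.30%, 2.60% and 2.46% in Riclin 2, 3 and 4. The share was thus 2.81% ± 0.350 (SD, n = 3) with saline and 2.45% ± 0.146 (SD, n = 3) with Riclin. Saline 2 stood above the other libraries, and Riclin 3 was level with saline 1, so the groups overlapped. The widest Wilson 95% interval was that of saline 2, from 3.21% to 3.22%, which covers counting error only and was narrow beside the differences between libraries.

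Levels per length differed widely between members. Mean FPKM over the 6 libraries had a median of 355, 67 members lay between 100 and 1000, 3 lay above 1000 and 6 below 100. Rpl41, the shortest ribosomal protein of the large subunit, had the highest level, at 1797, 2503 and 2024 FPKM with saline and 1585, 1892 and 1876 with Riclin. Rplp1, an acidic protein of the stalk that recruits elongation factors, followed at 1332, 1666 and 1282 FPKM with saline and 1158, 1310 and 1250 with Riclin. Both were highest in saline 2 and lowest in Riclin 2, and their groups overlapped. Rps14, of the platform of the small subunit, stood at 1090, 1517 and 1054 FPKM with saline and 1021, 1037 and 1122 with Riclin. Rpl10, which is built late into the large subunit near its catalytic centre, stood at 831, 876 and 840 FPKM with saline and 766, 802 and 775 with Riclin. Rpl10 varied least of all members, with 1.14-fold between its highest and lowest library, and each Riclin library lay below each saline library.

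The 2 lowest members both had near-identical copies, at 99% identity or more. Of all 76 members, 56 had such a copy, among them Rpl41, which had the highest level. Rpl34, of the large subunit, was listed at 6.25, 9.93 and 5.54 FPKM with saline and 6.22, 5.64 and 5.34 with Riclin. Its pseudogene Rpl34-ps1, shown above, was listed at 256, 349 and 256 FPKM with saline and 247, 295 and 278 with Riclin, close to the median level of the members. Rpl29, a large subunit protein with 27 copies in the annotation, was listed at 15.2, 19.4 and 12.9 FPKM with saline and 13.7, 13.9 and 12.5 with Riclin. Rps27rt has the same coding sequence as Rps27 and was listed at 32.1 to 40.1 FPKM against 456 to 709 for Rps27. Rpl37rt, a transcript with a near-identical copy of Rpl37, was listed at 58.0 to 73.9 FPKM against 195 to 267 for Rpl37. No source used here says how reads matching both a gene and its copy were divided, so the level of a member with such a copy is uncertain.

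No member passed the test between Riclin and saline, and most had a slightly lower mean with Riclin. In limma on log2(FPKM + 1), with p-values adjusted by the Benjamini-Hochberg method over the 11738 genes with at least 1 FPKM in at least 3 libraries, 0 of the 76 members (all of which were tested) and 0 of all genes had an adjusted p under 0.05 (background 0%). The smallest adjusted p was 0.156 over all genes and 0.791 among the members. At an unadjusted p under 0.05, 1 member was lower, against a background of 1.83% of all tested genes, and 0 were higher, against 4.07%. By the sign of the fitted log2 fold change, 73 of 76 members were lower with Riclin, against a background of 38.7%. All 3 Riclin libraries lay below all 3 saline libraries for 23 members, against a background of 3.02%, and above them for 0 members, against 8.14%. The median log2 fold change was -0.19 over the members and 0.04 over all tested genes, -0.20 over the large and -0.19 over the small subunit.

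**Figure D1:**
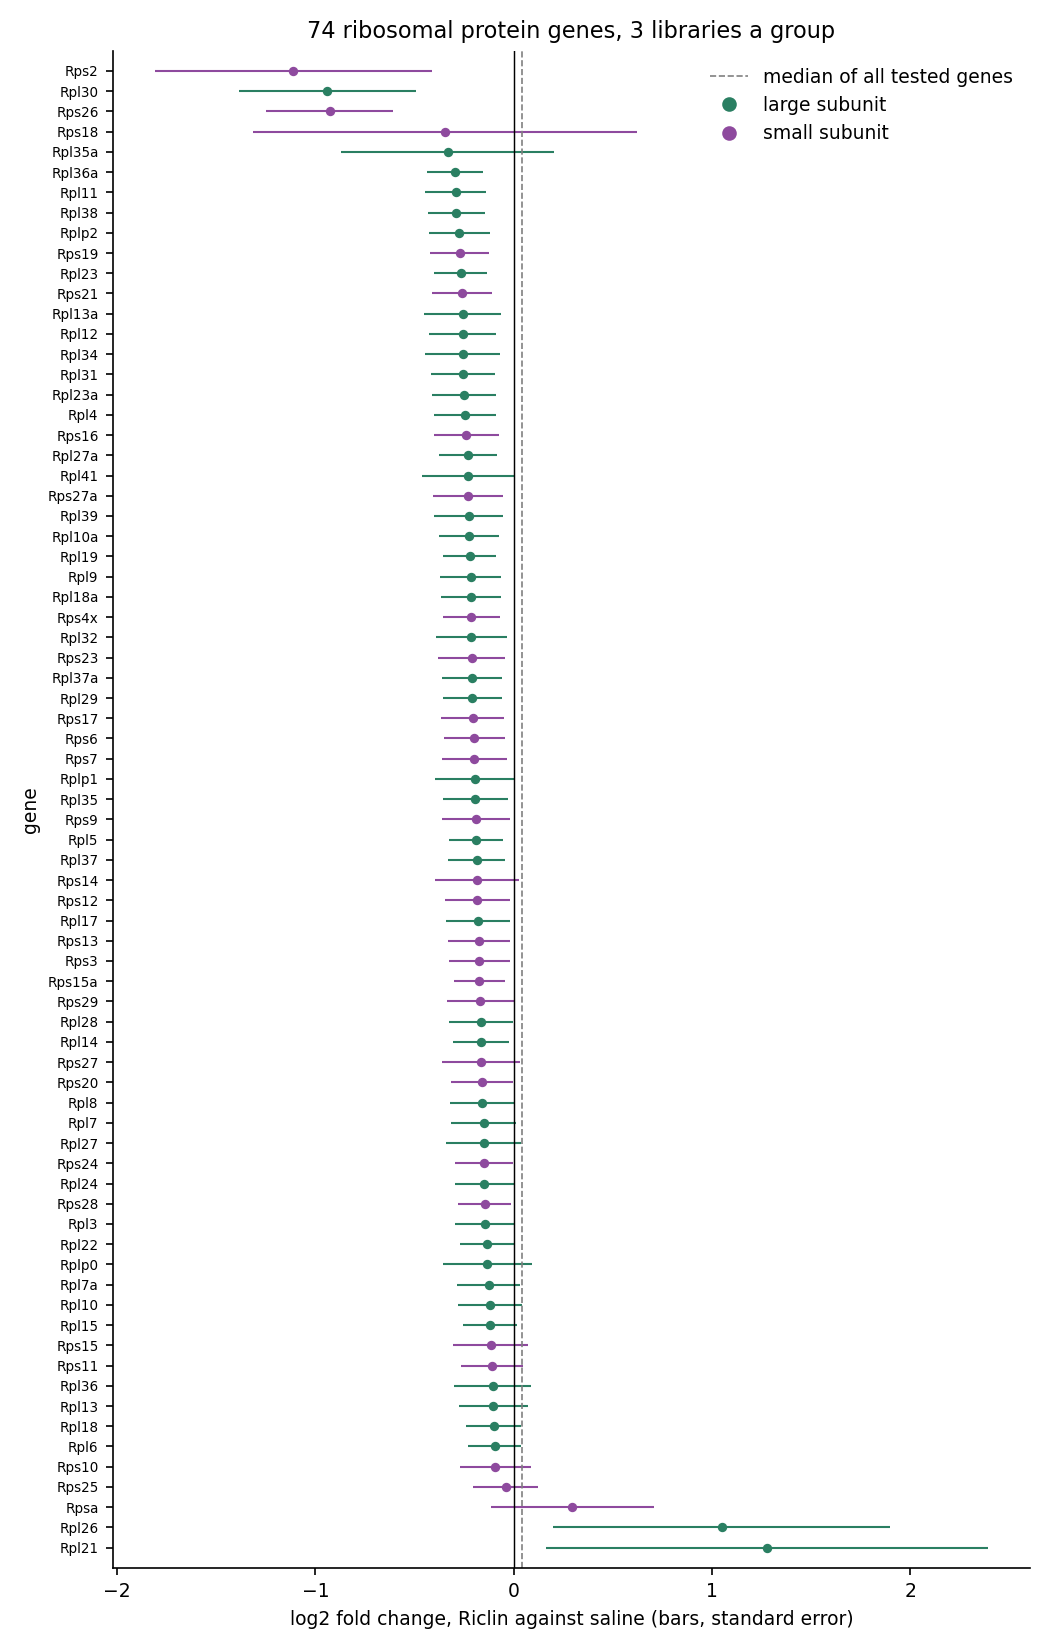
Log2 fold change of log2(FPKM + 1), Riclin against saline, for 74 of the 76 members (points, coloured by subunit), with its standard error from limma (bars), in order of size, and the median of all tested genes (dashed line). Most members lie below 0 within a narrow band, and Rpsa, Rpl26 and Rpl21 lie above 0 with wide errors.

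The range among the saline libraries exceeded the difference between the groups. The mean log2(FPKM + 1) over the members was 8.29, 8.55 and 8.27 in saline 1, 2 and 4, and 8.10, 8.27 and 8.19 in Riclin 2, 3 and 4. The group means were 8.37 ± 0.152 (SD, n = 3) with saline and 8.19 ± 0.081 (SD, n = 3) with Riclin, a difference of -0.19. Saline 2 was high and Riclin 2 was low, and the highest Riclin library, Riclin 3, lay just below the lowest saline library, saline 4. Saline 2 was the highest library for 70 of the 76 members but for 8.19% of all tested genes. Riclin 2 was the lowest library for 51 of the 76 members and for 16.4% of all tested genes. Without saline 2, the median log2 fold change of the members was -0.12 and 69 of 76 were lower, beside 47.3% of all genes. Without Riclin 2 the median was -0.15 and 71 members were lower, beside 33.5% of all genes. Leaving out a library can only keep or raise the count of genes without overlap, for members and all genes alike. For the members it was 23 with all libraries, beside 3.02% of all genes. It was 35 without saline 1, 38 without saline 4 and 49 without Riclin 3, beside 5.00%, 6.83% and 11.02% of all genes. With libraries scaled by the median of ratios it was 39, beside 6.84% of all genes, and the share of all genes that were lower was then 51.0%.

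**Figure D2:**
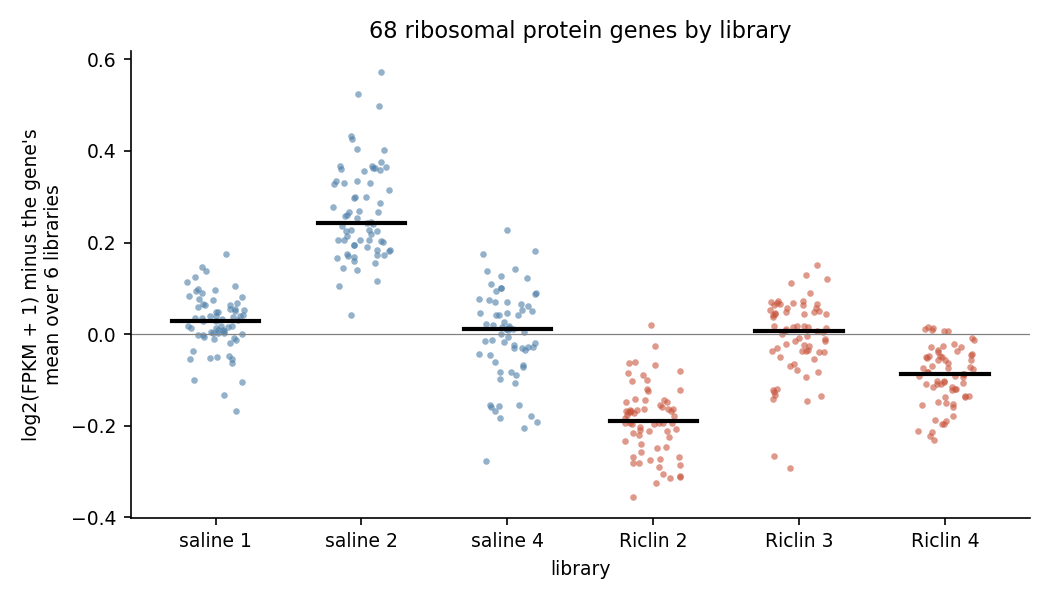
Deviation of log2(FPKM + 1) from the gene's own mean over the 6 libraries (vertical axis) in each library (horizontal axis), for the 68 members whose log2 range was at most 1.5; points are genes and black bars are medians. The medians are 0.03, 0.24 and 0.01 in saline 1, 2 and 4, and -0.19, 0.01 and -0.09 in Riclin 2, 3 and 4.

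Of these members, 68 had a narrow range between libraries and 8 a wide one. For the 68, log2(FPKM + 1) spanned 0.19 to 0.79 over the 6 libraries, with a median of 0.47 against 0.41 over all tested genes. For the other 8 it spanned 1.71 to 4.97, and no member lay between 0.79 and the 1.71 of Rpsa. This division at a range of 1.5 was chosen after the values were seen, and 3.84% of all tested genes, or 5.64% of those with a mean of at least 20 FPKM, had a wider range. All 68 narrow members were lower with Riclin, against 38.7% of all tested genes of any range. The division used these same values and left the 3 higher members among the wide ones, so this count adds nothing to 73 of 76. The log2 fold changes of the 68 were -0.35 to -0.04, with a median of -0.19. For 21 of the 68 every Riclin library lay below every saline library, against 3.02% of all tested genes of any range. Among the 8 wide members 5 were lower and 3 were higher.

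Rps2, a small subunit protein beside the messenger RNA channel, was listed at 80.6, 565 and 77.1 FPKM with saline and 55.8, 82.3 and 74.8 with Riclin. It was high in saline 2 and at 1 level in the other 5 libraries. Its log2 fold change was -1.11 ± 0.70 (SE), and without saline 2 it was -0.17. Rpl30, of the large subunit, was listed at 208, 418 and 207 FPKM with saline and 191, 194 and 68.2 with Riclin. Saline 2 was high, Riclin 4 was low and the other 4 libraries lay close together.

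Rps26, a small subunit protein at the exit of the messenger RNA channel, lies at chr10:128624534-128626747. It was listed at 452, 956 and 598 FPKM with saline and 408, 239 and 385 with Riclin. Every Riclin library lay below every saline library, and the mean was 1.95-fold lower with Riclin. It was the member with an unadjusted p under 0.05 and the smallest p of all members, with a log2 fold change of -0.93 ± 0.32 (SE) and an adjusted p of 0.791 in limma. Its single copy at 99% identity or more has no value in the table.

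Rps18, of the head of the small subunit, was listed at 441, 85.6 and 58.6 FPKM with saline and 45.5, 57.9 and 406 with Riclin. Saline 1 and Riclin 4 were high and the other 4 were low, so the high libraries came from both groups. Rpl35a, of the large subunit, was listed at 234, 110 and 71.2 FPKM with saline and 204, 66.6 and 66.9 with Riclin. Here saline 1 and Riclin 2 were high. Neither gene separated the groups.

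The 3 members with higher means with Riclin were all wide. Rpsa, a small subunit protein also known as the laminin receptor, was listed at 149, 489 and 414 FPKM with saline and 347, 407 and 395 with Riclin. Only saline 1 stood apart, on the low side. Rpl26, at the exit of the peptide tunnel and known for binding the Trp53 message, was listed at 63.8, 906 and 379 FPKM with saline and 711, 727 and 381 with Riclin. Saline 1 was low and saline 2 high, so the saline libraries enclosed all Riclin libraries. Rpl21, of the large subunit, was listed at 32.8, 1.06 and 56.5 FPKM with saline and 30.8, 63.7 and 26.7 with Riclin. Its value in saline 2 rests on 71 reads, the fewest of any member in any library, in the library where most members were highest. Its copy BC004004, shown above, stayed between 24.8 and 33.8 FPKM in all 6 libraries. Each of these directions rested on 1 library: without saline 1 the log2 fold changes of Rpsa and Rpl26 were -0.24 and -0.01, and without saline 2 that of Rpl21 was -0.19.

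**Figure D3:**
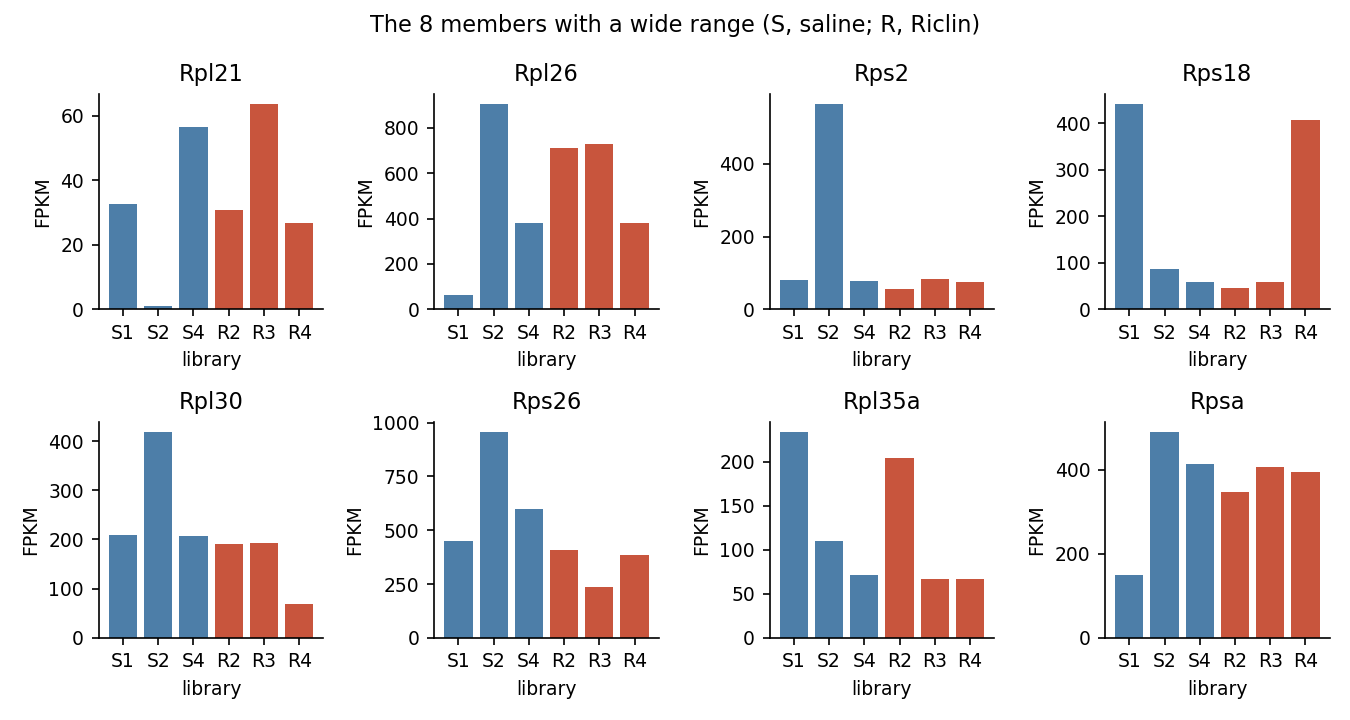
FPKM (vertical axes, linear, each with its own scale) of the 8 members whose log2 range exceeded 1.5, in the 3 saline libraries (S, blue) and the 3 Riclin libraries (R, red); a bar is 1 library. High and low libraries differ from gene to gene, as for Rps18, high in S1 and R4, and Rps2, high in S2.

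The wide members were compared with the others for their copies. All 8 had a copy at 99% identity or more, as did 48 of the other 68, and the median number of copies at 95% or more was 11 for the wide members and 5 for the others. Rpl21 had the most copies of all members, 56, but Rps26 had only 3 and Rps18 5, and Rpl29, a narrow member, had 27. Whether reads passed between these genes and copies in particular libraries was not tested.

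**Figure D4:**
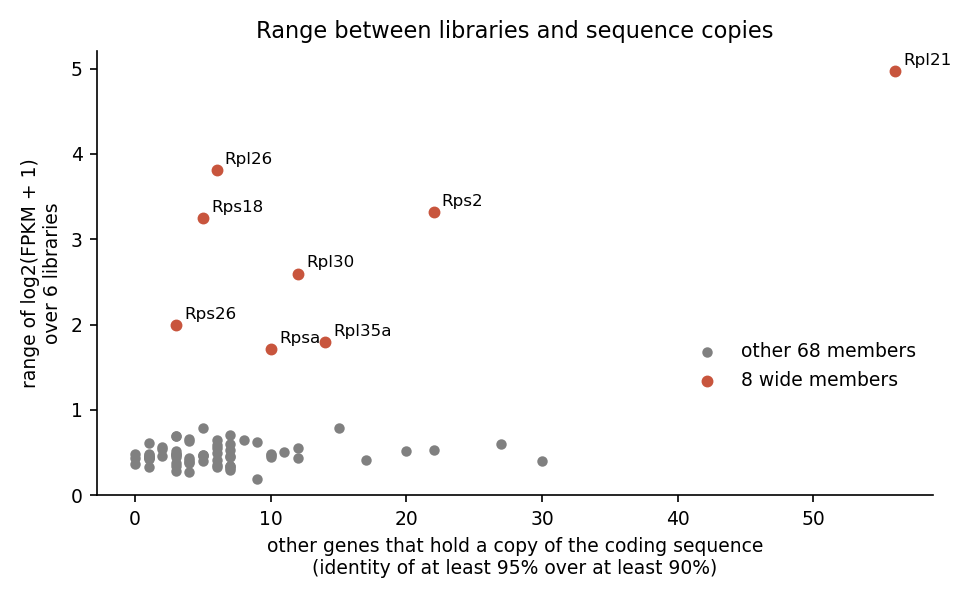
Range of log2(FPKM + 1) over the 6 libraries (vertical axis) against the number of other genes that hold a copy of the coding sequence (horizontal axis), for the 8 wide members (red, named) and the other 68 (grey). The wide members have between 3 and 56 copies, and narrow members are found up to 30 copies.

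By place in the ribosome, each group of members had a median below 0, as had the members as a whole. Among all 76 members 73 were lower, against 38.7% of all tested genes. For 23 members every Riclin library lay below every saline library, against 3.02% of all tested genes. The stalk of the large subunit, where elongation factors dock, comprised Rplp0, Rplp1, Rplp2 and Rpl12, and 4 of 4 were lower, and the median log2 fold change was -0.23. Rplp2 was listed at 432, 466 and 467 FPKM with saline and 332, 402 and 397 with Riclin, each Riclin library below each saline library. Rplp0, the scaffold of the stalk and a common reference gene in quantitative PCR, was listed at 539, 872 and 543 FPKM with saline and 614, 555 and 567 with Riclin. All 3 Riclin values of Rplp0 exceeded those of saline 1 and 4, and without saline 2 its log2 fold change was 0.10 in place of -0.13. Rpl5 and Rpl11 bind 5S ribosomal RNA and, when free of the ribosome, the p53 regulator Mdm2. Rpl11 was listed at 256, 321 and 257 FPKM with saline and 204, 239 and 236 with Riclin, and Rpl5 at 270, 303 and 271 with saline and 230, 266 and 244 with Riclin. The groups did not overlap for either gene, and their log2 fold changes were -0.29 ± 0.15 (SE) and -0.19 ± 0.14 (SE).

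Around the peptide tunnel exit, where targeting and folding factors meet the new chain, 7 of 8 members were lower, against 38.7% of all tested genes. The median log2 fold change of the 8 was -0.22, and Rpl26 was the exception. Rpl38, which is known for its part in the translation of Hox messages, was listed at 162, 187 and 190 FPKM with saline and 135, 167 and 138 with Riclin. Its Riclin 3 value lay just above saline 1, so the groups overlapped. Near the peptidyl transferase centre 7 of 7 members were lower, with a median of -0.16. Outside these groups, Rpl23, a large subunit protein, was listed at 264, 301 and 275 FPKM with saline and 240, 234 and 222 with Riclin. Rpl36a was listed at 332, 391 and 325 FPKM with saline and 283, 286 and 281 with Riclin. Both were without overlap, and the Riclin libraries of Rpl36a lay close together, at 283 ± 2.26 FPKM (SD, n = 3).

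In the small subunit, 13 of 14 proteins of the head were lower, at a median log2 fold change of -0.17. So were 7 of 7 of the platform and messenger RNA channel with -0.20 and 7 of 7 of the body and foot with -0.20. Of all tested genes 38.7% were lower. Rps19, of the head and the gene most often mutated in Diamond-Blackfan anaemia, an inherited failure of red cell production, was listed at 260, 326 and 272 FPKM with saline and 222, 252 and 233 with Riclin. Rps21, of the platform, was listed at 237, 289 and 234 FPKM with saline and 189, 225 and 219 with Riclin. The groups of both genes did not overlap. Rps6, the small subunit protein phosphorylated downstream of mTORC1, was listed at 299, 330 and 314 FPKM with saline and 236, 308 and 281 with Riclin. Riclin 3 lay above saline 1 for Rps6, and its log2 fold change was -0.20 ± 0.15 (SE). Rps27a, made as a fusion to ubiquitin, was listed at 353, 462 and 382 FPKM with saline and 295, 389 and 336 with Riclin, with overlap. The smallest differences of the members that were lower were in Rps10, at 350, 399 and 288 FPKM with saline and 309, 368 and 291 with Riclin, and Rps25, at 393, 504 and 422 with saline and 397, 446 and 433 with Riclin. Of the 18 members whose human counterparts are listed as Diamond-Blackfan anaemia genes, 17 were lower, with a median of -0.18 like that of the members as a whole.

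By median log2 fold change, other genes of protein synthesis lay nearer than the members, at -0.19, to all tested genes, at 0.04. By direction, 38.7% of all tested genes and 73 of 76 members were lower. Of 9 tested genes for ribosomal proteins outside the symbol rule, paralogs and Rack1 among them, 9 were lower, at a median log2 fold change of -0.12, and 0 passed the adjusted test. Rack1, a scaffold protein of the small subunit, was listed at 561, 605 and 501 FPKM with saline and 459, 515 and 512 with Riclin. Among 32 other genes with TOP messages 24 were lower, with a median of -0.09. Of these, Tpt1, the translationally controlled tumour protein, was listed at 1279, 1521 and 1339 FPKM with saline and 1126, 1146 and 1106 with Riclin, without overlap. Eef1a1, the factor that delivers aminoacyl-tRNA and itself a TOP message, was listed at 2684, 2670 and 2430 FPKM with saline and 2280, 2575 and 2507 with Riclin, with overlap and a log2 fold change of -0.08 ± 0.22 (SE).

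For 13 tested elongation factors 8 were lower, at a median log2 fold change of -0.01, and for 37 initiation factors 21 were lower with a median of -0.02. Ribosome assembly factors had 37 of 77 lower with a median of 0.01, and genes of RNA polymerases I and III, which make ribosomal and transfer RNA, had 13 of 39 lower with a median of 0.06. Genes of mTORC1 and its TOP regulators had 17 of 43 lower with a median of 0.03, and mitochondrial ribosomal proteins 27 of 78 with a median of 0.03. None of these lists had a gene with an adjusted p under 0.05 in limma, and at an unadjusted p under 0.05 they held 1 lower assembly factor, 1 lower mitochondrial ribosomal protein and 2 higher genes of the mTORC1 list. The differences between the members and these lists were not tested.

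**Figure D5:**
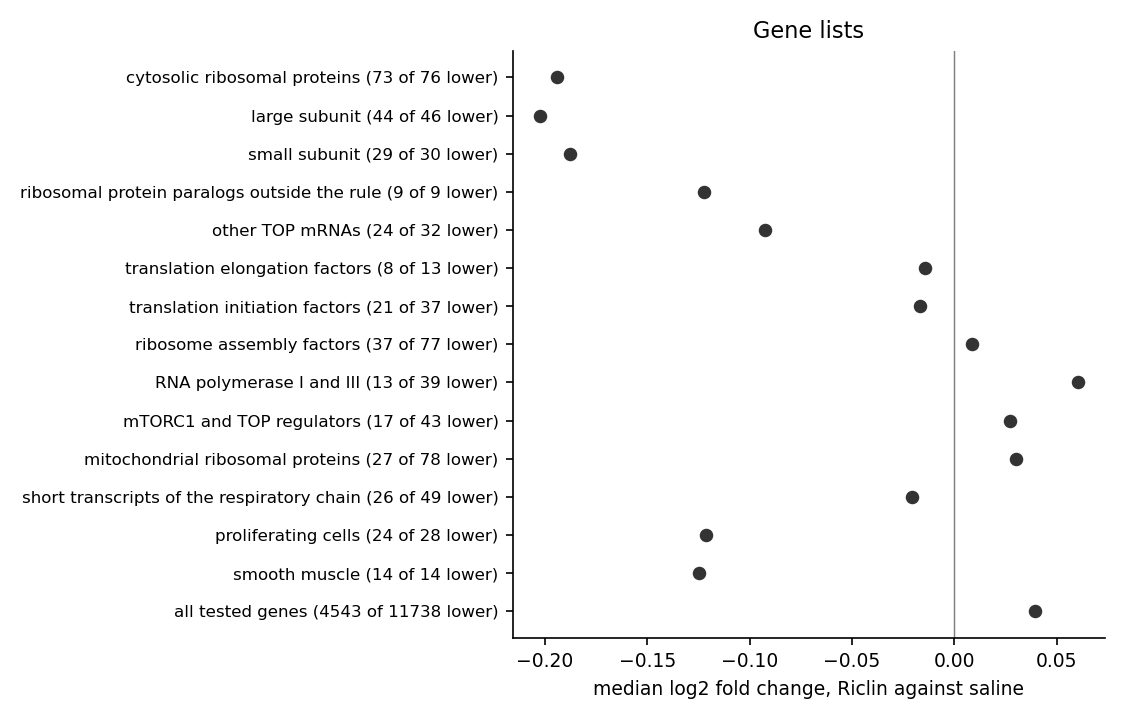
Median log2 fold change, Riclin against saline (horizontal axis), of the members, their subunits and lists of other genes, with the number of tested genes that were lower. The members lie at -0.19, the other TOP messages at -0.09, and elongation, initiation and assembly factors within 0.02 of 0.

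Ribosomal protein messages are short, and other short genes also tended to be lower. The lengths implied by the FPKM values ran from 140 to 5136 bases for the members, 48 of them under 1000 bases. The shortest, 140 bases for Rpl23a, was less than the 468 bases of its coding sequence, so that length is uncertain. Among other genes under 600 bases the median log2 fold change was -0.08, and among the 23 members of that length it was -0.21. Between 1200 and 2000 bases the medians were 0.01 for other genes and -0.17 for 17 members. A second set of short and abundant messages, 49 nuclear genes of the respiratory chain with a median length of 602 bases, had 26 lower genes and a median of -0.02. Above 2000 bases there were only 4 members up to 4000 bases and 1 beyond. With the trend over length removed from all genes, the median of the members was -0.16 in place of -0.19. That of all tested genes was -0.001 in place of 0.04. The part of length in the members' difference was not tested.

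The levels of cell type markers also differed between libraries. Messages of parietal, chief and surface cells, such as Atp4a, Pgc and Tff1, were abundant in each of the 6 libraries. In bulk tissue, fewer cells of a type and less RNA per cell cannot be told apart. The 34 pancreatic acinar genes not shared with chief cells took 4.90%, 19.8% and 18.2% of reads with saline and 13.4%, 0.0878% and 12.5% with Riclin. Saline 2 held the largest share and Riclin 3 almost none. The whole list of 37 acinar genes, those shared with chief cells included, was also removed and the rest rescaled. Then 73 of 76 members were lower, beside 57.3% of all genes. Of these members 13 had an unadjusted p under 0.05 in limma, beside 5.53% of all genes that were lower at that p. Without that removal, 4543 of all 11738 tested genes were lower with Riclin and 7195 were higher, beside the counts of lists that follow. Of the proliferating cell list 24 of 28 genes were lower, at a median log2 fold change of -0.12. The mean log2(FPKM + 1) of this list was 3.25, 3.22 and 3.29 with saline and 2.96, 3.25 and 3.18 with Riclin. Like the members, this list was lowest in Riclin 2, but it was not high in saline 2. Chief cell genes were higher in 7 of 7 and parietal cell genes in 13 of 15, with medians of 0.59 and 0.28. Mucous neck cell genes were lower in 6 of 6 with a median of -0.58. With the acinar genes removed and the rest rescaled, that median was -0.42. Dmbt1 of the neck list was lowest in Riclin 3, at 31.8 FPKM, where the acinar share was also lowest. Surface mucous cell genes were lower in 10 of 11 with a median of -0.15, smooth muscle genes in 14 of 14 with -0.12 and lymphocyte and plasma cell genes in 8 of 10 with -0.36. Genes of the squamous forestomach were higher in 19 of 20 with a median of 0.76. Several of these medians moved with 1 library. Without saline 1 the surface mucous cell median was 0.04, the squamous median 0.34 and the neck cell median -0.89, and without Riclin 4 the surface mucous cell median was -0.04, against -0.23, -0.28 and -0.28 without saline 2, saline 4 and Riclin 3. Without saline 2 the squamous median was 1.26, the lymphocyte and plasma cell median -0.67 and the chief cell median 0.38. Without saline 4 the lymphocyte and plasma cell median was -0.20, the parietal cell median 0.19 and the smooth muscle median -0.20, and without Riclin 2 the proliferating cell median was -0.03. The part of these cells in the members' difference was not tested.

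What the members share outside expression was read from their promoters. RefSeq start sites on GRCm38.p6 matched 56 of the 76 members, and the 60 bases before and 20 after each start were searched. The letters CTTTC, a pyrimidine run, stood on the sense strand in 22 of the 56, or 39.3%, and in 12.0% of the promoters of 26969 other genes. The letters CCGGAAG, searched on both strands and known as a core bound by ETS factors, stood in 12 of the 56, or 21.4%, and in 5.44% of the other promoters. The letters TATAA, on the sense strand, stood in 6 of the 56, or 10.7%, and in 7.58% of the others. Matches of CTTTC and CCGGAAG can share at most 1 base, and TATAA shares none with either. The 4 windows below show a wide member with CTTTC and TATAA (Rps26, chr10:128626487-128626566, minus strand), a wide member with TATAA alone (Rps18, chr17:33955646-33955725, minus strand), a narrow member with CTTTC and CCGGAAG (Rpl38, chr11:114668520-114668599, plus strand) and a narrow member with none of them (Rps6, chr4:86857348-86857427, minus strand). Capitals mark the matches. A match describes letters only, and no binding was measured here.
Rps26: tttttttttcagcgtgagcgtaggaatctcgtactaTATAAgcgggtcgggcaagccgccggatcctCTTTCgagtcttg
Rps18: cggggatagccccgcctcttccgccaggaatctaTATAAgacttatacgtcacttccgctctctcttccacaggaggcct
Rpl38: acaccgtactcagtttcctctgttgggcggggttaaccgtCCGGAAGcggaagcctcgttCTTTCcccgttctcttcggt
Rps6: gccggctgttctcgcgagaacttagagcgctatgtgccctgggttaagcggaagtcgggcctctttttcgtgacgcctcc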

How the data were processed

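The authors deposited 1 table of FPKM values for 6 libraries, and the submitters' processing notes name Bowtie2 and mm10 without a role; the counting tool, its treatment of reads with several matches and the annotation are stated in no source used here. From the FPKM values, whole reads and gene lengths were recovered (relative tolerance 1e-09, 99.9873% of genes). Values were tested as log2(FPKM + 1) with limma 3.58.1 (trended variance prior, two-sided, no covariates) in R 4.3.3 on genes with at least 1 FPKM in at least 3 libraries, and p-values were adjusted by Benjamini-Hochberg over all tested genes. The fit was checked on simulated data. Coding sequences were searched against transcripts with BLAST+ 2.17.0.

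The members and gene lists were chosen with earlier results of these data known, so no p-value over a list is given. Values by library are given for the 10 members with the smallest p, the 5 lowest and 5 highest fold changes, the 4 highest and 2 lowest levels, and Rplp0, Rplp1, Rplp2, Rpsa, Rps6, Rpl5, Rpl11, Rps27a, Rps26 and Rpl30, and for up to 4 abundant genes of a list. Rpl35a, the sequence copies with values and the division into wide and narrow members were chosen after the values were seen. Alternatives were another pseudocount, filter, scaling, variance prior, a replicate block, removal of a length trend, voom on the recovered reads and leaving out each library. Values of 2 members are not reported here one by one, and both remain in the counts and medians.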

Additional observations from a re-analysis of the deposited data

How the results depend on the processing

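Of the summary results in the report, the median log2 fold change of the members stayed below 0 under every alternative run, from -0.28 with a replicate block to -0.12 without saline 2, and 69 to 73 of 76 members were lower. No member had an adjusted p under 0.05 in any of them. Among all tested genes, the share that was lower ran from 30.8% without saline 1 to 57.3% with acinar genes removed. The number of members lower at an unadjusted p under 0.05, which was 1, was 3 with no filter, 6 with median-of-ratios scaling, 6 with upper-quartile scaling, 13 with acinar genes removed, 3 with the replicate block, 4 with a length trend removed and 5 with voom on recovered reads. It was 0 without the 8 wide members, an alternative chosen after seeing the data, and 0 to 2 when each library was left out. When each library was left out, the number higher was 0 to 1. The number without overlap was then 23 to 49, a number that leaving out a library cannot lower. The number of all genes with an adjusted p under 0.05 was then 0 to 1. Median-of-ratios scaling gave 39 members without overlap, and a robust variance prior gave 2 genes with an adjusted p under 0.05, neither of them a member. The share of all genes lower at an unadjusted p under 0.05 was 1.83% as reported, 1.97% with no filter, 4.32% with median-of-ratios and 3.80% with upper-quartile scaling, 5.53% with acinar genes removed, 2.73% with the replicate block, 3.996% with the length trend removed and 1.73% with voom. The median of the lymphocyte and plasma cell list was -0.05 at a minimum of 5 FPKM and -0.75 with no filter. The cause of these differences was not tested. Fits with a library left out also compared fewer libraries.

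The replicate block used the numbers 2 and 4, which both groups share. Saline 1 and Riclin 3 have no library of the same number in the other group. Fold changes with the block thus rested on saline 2 and 4 and Riclin 2 and 4 alone. Same-numbered libraries were correlated over 11738 genes, on log2(FPKM + 1) minus each gene's mean in its group. The correlation was 0.222 for number 2 and 0.0109 for number 4. The labels do not say that a number marks a shared animal or batch, so the libraries share only a number. With the block, Rps18 had a log2 fold change of 0.94, Rpsa of -0.28 and Rpl26 of -0.17, each opposite to the reported direction. Rps25 was at 0.00998 with the length trend removed. Leaving out libraries in turn gave Rps18 -1.33 to 0.53, Rpsa -0.24 to 0.62, Rpl26 -0.0121 to 1.89, Rpl21 -0.19 to 2.21, Rplp0 -0.25 to 0.10, Rps10 -0.22 to 0.0171 and Rps25 -0.12 to 0.0611. These were directions of differences that passed no test. The fewest reads behind a member's value were 71, and each group had 3 libraries.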
